A study of Mus musculus with 2 samples.

Results

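The mitochondrial carrier genes are described here in 2 libraries of CMT167R cells: the nuclear genes for the Slc25 family, the uncoupling proteins Ucp1 to Ucp3 and the pyruvate carrier subunits Mpc1 and Mpc2. Members were all protein-coding genes of the deposited table whose symbol begins with Slc25a and a digit, or is one of those 5 other symbols. This gave 52 genes of 54532 in the table, and 41 of them reached at least 1 CPM (counts per 1000000 counts of the library) in at least 1 library. CMT167R cells derive from CMT167, a line of mouse lung carcinoma, and are labelled anti-PD1 resistant (anti-PD1 antibodies block a brake on T cells). The whole design was 1 untreated library, called CON, and 1 library of cells that had 50 nM PKCi for 24 h. No label names the compound behind PKCi or a vehicle for the untreated cells, and both groups are the same resistant line.

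Carriers of the Slc25 family are small proteins of the inner mitochondrial membrane, built from repeated units, that exchange or import nucleotides, phosphate, carboxylates, amino acids, cofactors and metal ions. They are encoded in the nucleus, made in the cytosol and brought in through the TOM pore, the small TIM chaperones and the TIM22 complex. The mitochondrial pyruvate carrier belongs to another family, and its Mpc1 and Mpc2 subunits work as a pair. In tumour cells these proteins set how carbon, nitrogen and adenine nucleotides pass between cytosol and matrix.

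Coding stretches of related carriers are shown first, because the values of paralogs can be read separately only where reads can tell them apart. The first 120 coding bases of the ADP/ATP carriers Slc25a4 and Slc25a5 differ at the 26 positions in capitals (GENCODE M21 transcripts, 5′ to 3′).
Slc25a4: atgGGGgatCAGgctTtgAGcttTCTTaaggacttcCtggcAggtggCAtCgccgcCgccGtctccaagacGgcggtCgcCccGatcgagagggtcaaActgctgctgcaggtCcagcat
Slc25a5: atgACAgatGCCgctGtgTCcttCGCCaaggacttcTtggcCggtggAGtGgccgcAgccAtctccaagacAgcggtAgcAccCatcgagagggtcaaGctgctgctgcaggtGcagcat
Over their 897 coding bases these paralogs were 77.5% identical, and their longest identical run was 20 bases, against a read length of 150 bases. Slc25a5 also shares identical runs of 131 and 145 bases with the processed pseudogenes Gm5529 and Gm5560. These had 65 and 42, and 12 and 4 counts, in the untreated and PKCi libraries. Shorter runs of 112 and 117 bases are shared with Gm6425 and Gm5256, which had 0 or 1 counts. The iron carriers Slc25a28 (coding bases 301 to 420) and Slc25a37 (coding bases 220 to 339) are shown because they differed in opposite directions, and the 44 differing positions are in capitals.
Slc25a28: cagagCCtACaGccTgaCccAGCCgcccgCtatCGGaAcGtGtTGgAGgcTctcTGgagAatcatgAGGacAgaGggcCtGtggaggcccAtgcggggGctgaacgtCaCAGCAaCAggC
Slc25a37: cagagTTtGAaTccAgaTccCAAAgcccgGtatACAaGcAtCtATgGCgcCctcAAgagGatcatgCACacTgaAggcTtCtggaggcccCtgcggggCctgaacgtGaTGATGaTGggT
Over 1003 aligned coding bases the iron carriers were 68.4% identical, with a longest identical run of 15 bases. The stretch from coding base 47 to 196 of Mpc1 is shown for the opposite reason: the same 150 bases stand without introns in the processed pseudogene Mpc1-ps (chromosome 12, 110858565 to 110858894, GRCm38). Capitals mark the base on either side of 3 exon junctions of Mpc1.
Mpc1: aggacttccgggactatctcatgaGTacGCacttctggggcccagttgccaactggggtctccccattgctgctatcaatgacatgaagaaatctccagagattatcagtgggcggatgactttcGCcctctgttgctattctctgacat
Across the other 11 related pairs compared, from Slc25a39 and Slc25a40 at 56.5% to Ucp2 and Ucp3 at 75.3% identity, no identical run was longer than 24 bases.

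The middle of the carrier family lay near that of all genes: its median log2 ratio, log2((PKCi + 1)/(CON + 1)) in CPM, was -0.05, against -0.02 for the 10943 measured protein-coding genes. The carriers' quartiles were -0.47 and 0.16, against -0.41 and 0.37. A single carrier, Slc25a37, was at least 2-fold higher on this log2 scale, which is 2.44% of the 41 measured, beside a background of 6.46% of protein-coding genes. Slc25a48, Slc25a32 and Slc25a12 were at least 2-fold lower, which is 7.32% beside a background of 5.36%. Both shares are near the background or below it. At 1.5-fold, 4 carriers (9.76%) were higher and 9 (22%) lower, beside backgrounds of 16.2% and 17.0%. No test was run, for want of replicates, so each fold below is the plain ratio of CPM between these libraries, with an exact 95% interval from the counts that covers counting error only. That interval excluded a ratio of 1 on the higher side for 7 carriers (17.1%) and on the lower side for 14 (34.1%), beside 35.7% and 39.4% of protein-coding genes, and neither share of carriers is above its background. Of the carriers 63.4% lay below a log2 ratio of 0, beside 51.5% of protein-coding genes. Counts of genes that passed 2-fold are on the log2(CPM + 1) scale throughout, where genes with few counts pass less easily than by their plain fold. In bulk RNA, fewer cells with a transcript and less transcript per cell cannot be told apart.

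**Figure D1:**
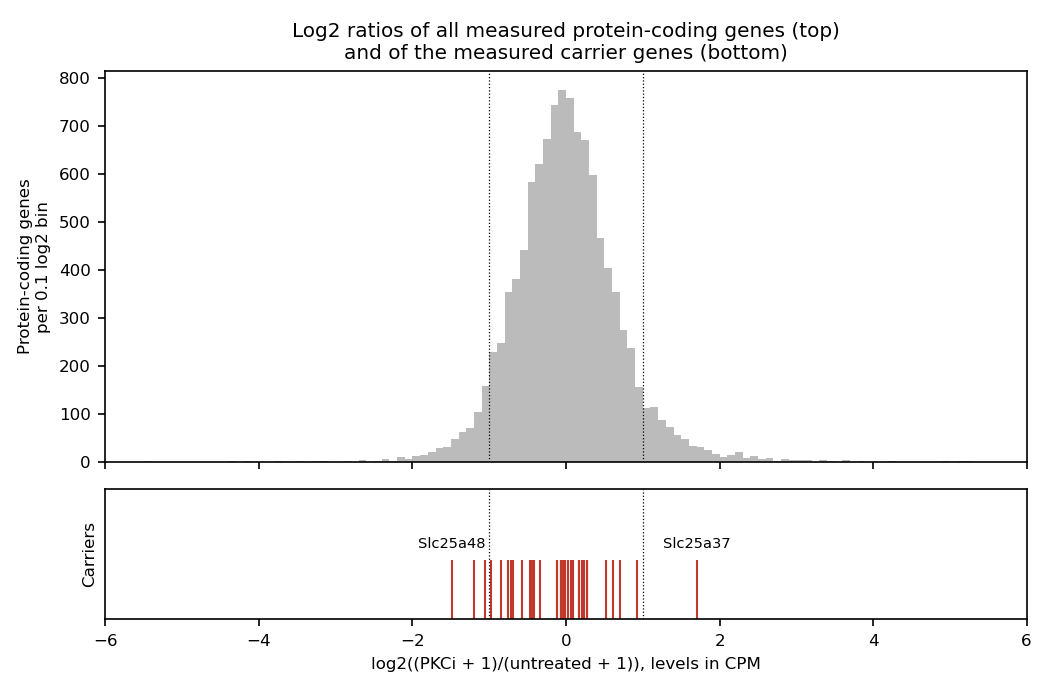
Distribution of log2((PKCi + 1)/(CON + 1)), levels in CPM, for 10943 measured protein-coding genes (top, genes per bin) and for each of the 41 measured carriers (bottom, 1 line per gene). Dotted lines mark a 2-fold difference. Slc25a37 lies at 1.70 and Slc25a48 at -1.49, and most carriers lie near 0.

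The summed carrier counts were close between the libraries, while their makeup differed. All 52 members together held 51182 counts in the untreated library and 50203 in the PKCi library, which is 0.318% and 0.312% of the library totals. The ratio of these shares was 0.982 (interval 0.970 to 0.994). Slc25a37 alone took 7.05% of carrier counts in untreated cells and 23.5% in PKCi cells. Without it the sum was 47575 and 38429 counts, 1.24-fold lower in the PKCi library (1.22 to 1.25). The phosphate carrier Slc25a3 with the ADP/ATP carriers Slc25a4 and Slc25a5 took 38.6% of carrier counts in untreated cells and 27.3% in PKCi cells.

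**Figure D2:**
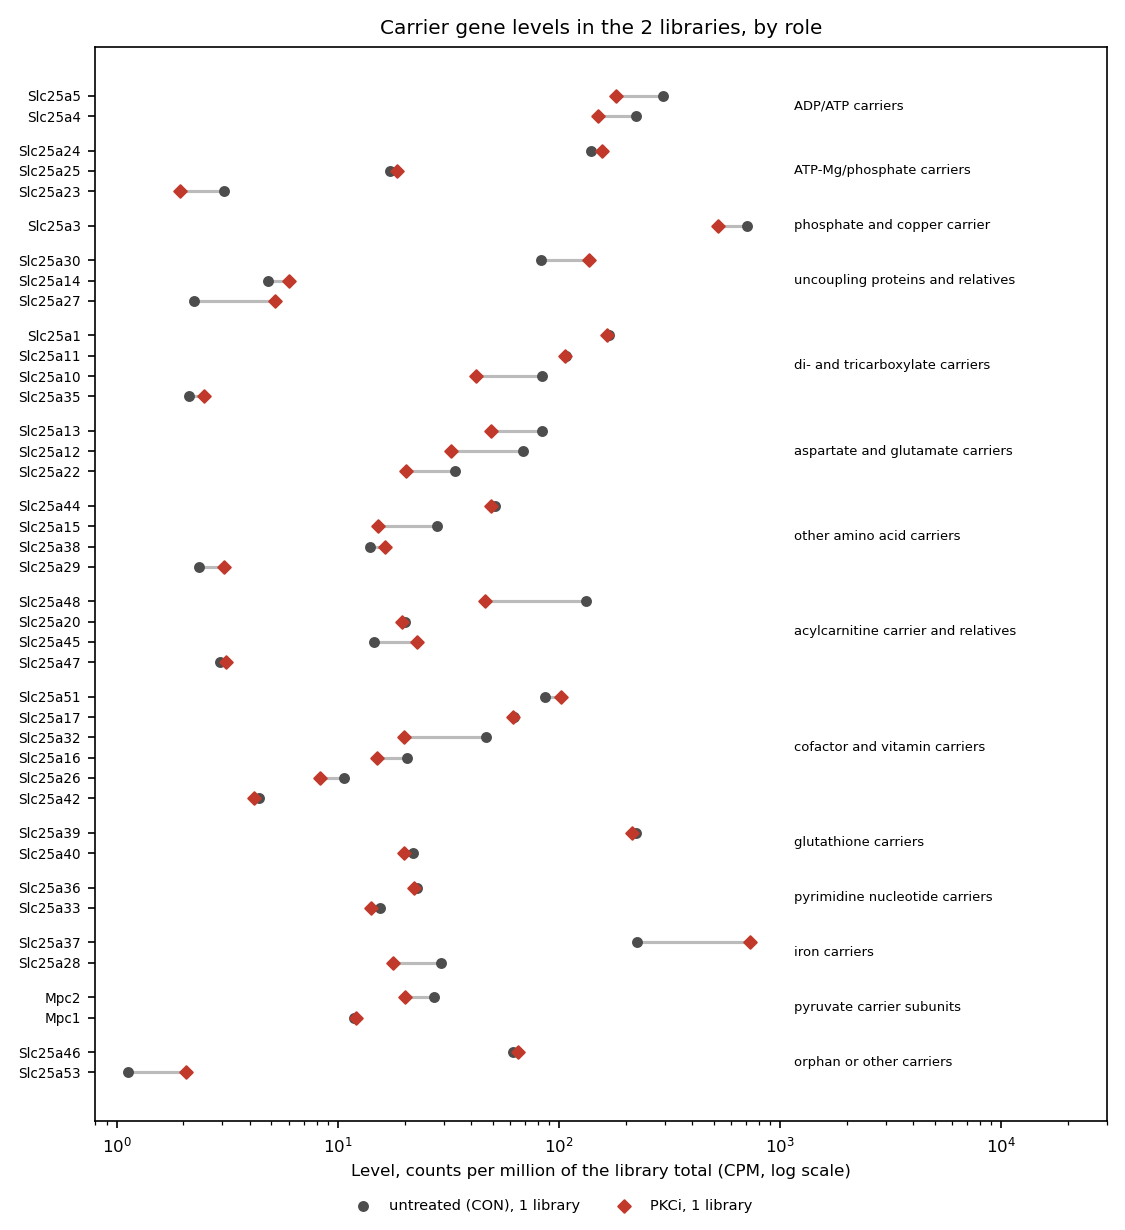
Level of 40 of the 41 measured carriers in CPM (log axis) in the untreated library (circles) and the PKCi library (diamonds), ordered by role. The line between the symbols is longest for Slc25a37, from 224 to 733 CPM, and for Slc25a48, from 132 to 46.4 CPM.

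The iron carriers gave the largest difference of the family. Slc25a37 (mitoferrin 1), which brings iron into the matrix for heme and iron-sulfur cluster synthesis and is known above all from developing red cells, had 3607 counts (224 CPM) in the untreated and 11774 counts (733 CPM) in the PKCi library. The gene lies on chromosome 14 (69241848 to 69285112, minus strand, GRCm38). It was 3.27-fold higher (3.15 to 3.39), a log2 ratio of 1.70, and ranked 182 from the top among 10943 protein-coding genes. Slc25a28 (mitoferrin 2), the paralog found in most tissues, went the other way, from 472 counts (29.3 CPM) to 285 (17.7 CPM), 1.65-fold lower (1.42 to 1.92). Per gene length, in TPM (counts per length, scaled to 1000000), Slc25a37 made up 65.8% of the pair in untreated cells and 91.2% in PKCi cells. The ratio of Slc25a37 to Slc25a28 changed 5.41-fold, a value that does not depend on the gene lengths. As the stretches above show, reads of the pair can be told apart, while the predicted gene Gm16867 shares 382 bases with Slc25a37 and had 0 and 3 counts.

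Genes of iron-sulfur cluster and heme synthesis were mixed. That list, which also holds the transferrin receptor gene Tfrc of the cell surface, had 13 measured genes. Of these, 1 passed 2-fold on the higher side and 0 on the lower, beside 6.46% and 5.36% of protein-coding genes. On the list 4 lay above a log2 ratio of 0 and 9 below (51.5% of protein-coding genes lay below), and the median was -0.16. Alas1, the enzyme of the first step of heme synthesis outside red cells, was at 20.3 CPM in untreated and 43.2 CPM in PKCi cells, 2.13-fold higher (1.86 to 2.43). Lyrm4 and Glrx5, which act in iron-sulfur cluster assembly and transfer, were 1.97-fold (1.57 to 2.49) and 1.73-fold (1.59 to 1.90) lower. Abcb10, a transporter known to stabilise mitoferrin 1, had 49.5 and 47.8 CPM, and its interval held a ratio of 1. Tfrc was at 402 and 307 CPM. A list of 10 iron handling genes, picked after values were seen and also holding Tfrc, had 6 above 0 and 4 below. Of protein-coding genes 51.5% lay below. On this list 1 was at least 2-fold higher and 0 lower, beside 6.46% and 5.36% of protein-coding genes. That gene was Hmox1, which breaks down heme, at 49.1 and 127 CPM. The ferritin heavy chain gene Fth1 was 1.39-fold higher (1.37 to 1.41) and the light chain gene Ftl1 was 1.02-fold lower (1.0 to 1.05). Of 9 red cell lineage genes, also picked after values were seen, 4 (Hbb-bt, Hbb-bs and Gata1 among them) had 0 counts in both libraries and the list summed to 4.04 and 4.73 CPM.

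The ADP/ATP carriers and the phosphate carrier were lower in the PKCi library. Slc25a4 and Slc25a5, which exchange cytosolic ADP for ATP made in the matrix, had 3592 and 2401 counts (223 and 149 CPM), and 4767 and 2919 counts (296 and 182 CPM). They were 1.49-fold (1.42 to 1.57) and 1.63-fold (1.56 to 1.71) lower. Slc25a3, which carries the phosphate for ATP synthesis and also copper, was the carrier with the most counts in the untreated library, at 11375 counts (707 CPM) against 8395 (522 CPM), 1.35-fold lower (1.32 to 1.39). The ATP-Mg/phosphate carriers shift the size of the matrix adenine nucleotide pool. Of these, Slc25a24 was 1.12-fold higher (1.06 to 1.19) at 140 and 157 CPM. Slc25a25 had 277 and 296 counts, with an interval that held a ratio of 1. Slc25a23 had few counts, 49 and 31. It was 1.58-fold lower by the plain ratio, with a wide interval (0.987 to 2.56) that held 1. Slc25a31, the germ cell ADP/ATP carrier, had 0 and 1 counts, and Slc25a41 had 0 in both libraries.

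The ATP synthase that these carriers serve lay to the same side. Of its 18 measured subunit and assembly genes, 16 lay below a log2 ratio of 0, beside 51.5% of protein-coding genes, with a median of -0.34. In this set 1 was at least 2-fold lower and 0 higher, beside 5.36% and 6.46% of protein-coding genes. Atp5g1, which encodes a subunit of the membrane ring, was at 129 and 60.3 CPM, 2.14-fold lower (1.98 to 2.31). Atp5b, the catalytic beta subunit, was 1.27-fold lower (1.24 to 1.29). The exceptions above 0 were the inhibitory factor Atpif1, at 42.6 and 48.3 CPM, and Atp5e, at 53.6 and 55.7 CPM. The 13 protein genes encoded in the mitochondrial DNA took 2.42% of untreated and 2.84% of PKCi library counts.

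**Figure D3:**
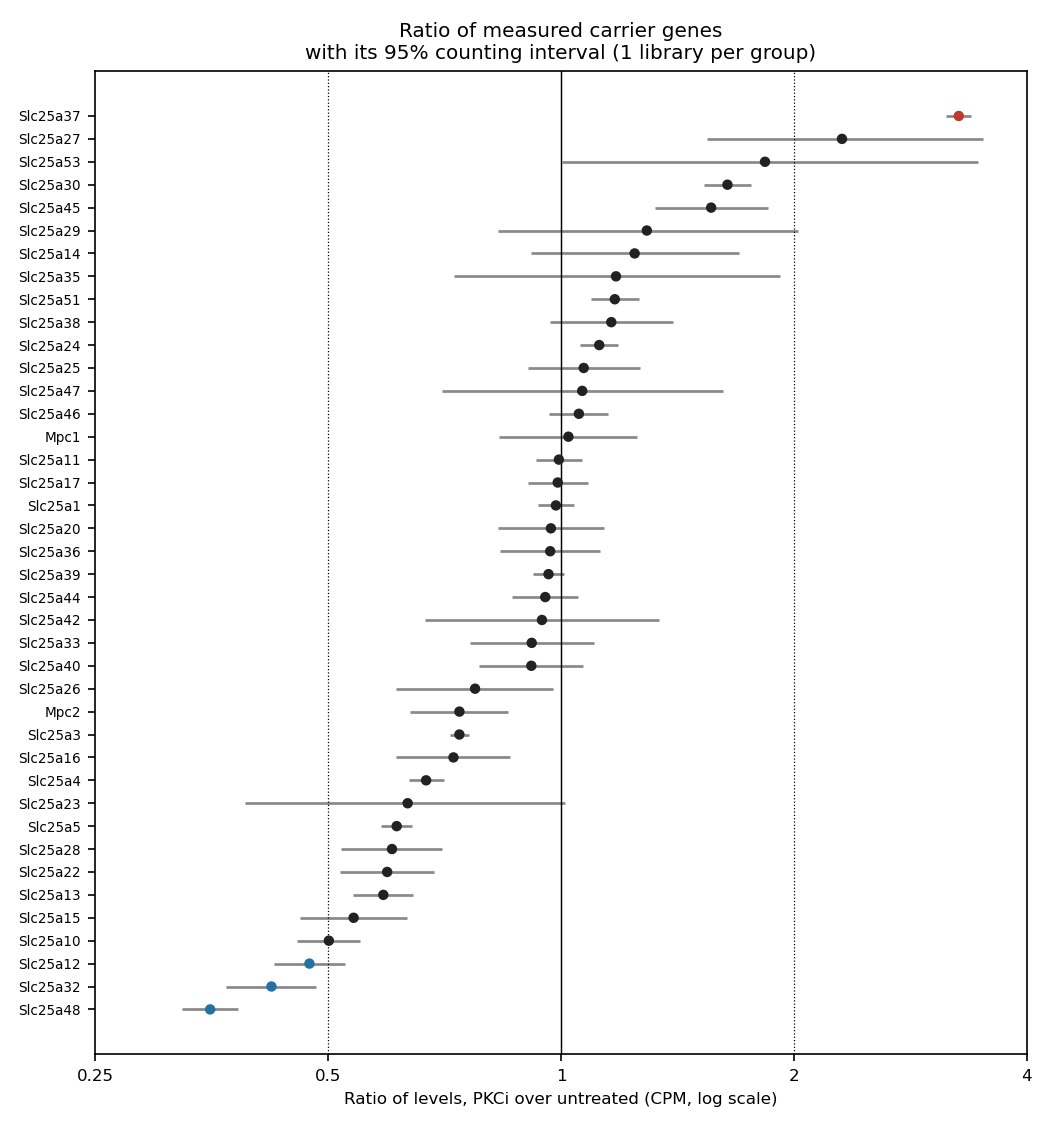
Ratio of CPM, PKCi over untreated, for 40 of the 41 measured carriers on a log axis, with the exact 95% interval for counting error. Coloured points are the carriers at least 2-fold higher (Slc25a37) or lower (Slc25a12, Slc25a32, Slc25a48) on the log2(CPM + 1) scale, dotted lines mark ratios of 0.5 and 2, and Slc25a27 and Slc25a53 show the wide intervals of low counts.

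Uncoupling proteins proper had few or no counts, while 2 of their 3 measured relatives were higher in the PKCi library. Ucp1, which uncouples respiration in brown fat, had 0 counts in both libraries, which allows up to 0.186 CPM in untreated and 0.187 CPM in PKCi cells. Ucp2 had 4 and 2 counts and Ucp3 had 1 in each library. Slc25a30, a carrier related to the uncoupling proteins, had 1331 counts (82.7 CPM) in untreated and 2182 (136 CPM) in PKCi cells, 1.64-fold higher (1.53 to 1.76). Slc25a27 (also named UCP4) had 36 and 83 counts, or 2.24 and 5.16 CPM, 2.31-fold higher (1.54 to 3.51). Its log2 ratio of 0.93 stayed under the 2-fold call because of the pseudocount of 1 CPM. Slc25a14 had 78 and 97 counts, and its interval held a ratio of 1. Of 7 brown adipocyte markers, 5 (Ucp1, Cidea, Elovl3, Adipoq and Plin1) had 0 counts. The other 2, Dio2 and Ppargc1a, held the whole sum of the list. That sum was higher in the PKCi library, at 65 and 216 counts (4.04 and 13.4 CPM).

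Carboxylate carriers split. Slc25a10, which exchanges malate or succinate for phosphate, was at 1345 counts (83.6 CPM) and 673 (41.9 CPM), 2.0-fold lower (1.82 to 2.19), with a log2 ratio of -0.98 just inside the 2-fold line. Slc25a1, which exports citrate for lipid synthesis, had 2702 and 2658 counts, a ratio whose interval runs from 1.07-fold lower to 1.04-fold higher. Slc25a11, the oxoglutarate carrier of the malate-aspartate shuttle, had 1725 and 1712 counts (107 CPM in each library). Slc25a35 had 34 and 40 counts, and Slc25a21 and Slc25a34 had 0 in both.

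Enzymes beside these carriers were lower more often than higher. Of 23 genes of citrate export and the tricarboxylic acid cycle, 21 lay below a log2 ratio of 0, and the median was -0.30. Of protein-coding genes 51.5% lay below 0. Idh3a, a subunit of NAD-dependent isocitrate dehydrogenase, was the only one at least 2-fold lower on the log2(CPM + 1) scale, and 0 were 2-fold higher. The background was 5.36% lower and 6.46% higher among protein-coding genes. Idh3a was at 144 and 61.9 CPM, 2.32-fold lower by the plain ratio (2.15 to 2.50). Me3, a malic enzyme with 19 and 3 counts, was 6.33-fold lower by the plain ratio (1.86 to 33.4) and did not pass on the log2 scale. Acly, which cleaves the citrate exported by Slc25a1, was at 751 and 699 CPM, 1.07-fold lower (1.05 to 1.10).

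Of the pyruvate carrier, Mpc2 could be read more safely than Mpc1. Mpc2 had 439 and 324 counts (27.3 and 20.2 CPM), 1.35-fold lower (1.17 to 1.57). Mpc1 had 190 and 194 counts (11.8 and 12.1 CPM), a ratio of 1.02 (0.833 to 1.26). The processed pseudogene Mpc1-ps had more counts than Mpc1 itself, 505 and 493 (31.4 and 30.7 CPM). It is 99.7% identical to the 330 bases it was aligned with, and an identical run of 289 bases exceeds the 150-base reads, so reads that lie within that run, also those that cross its exon junctions, match both genes. Reads from the rest of the Mpc1 transcript do not share that run. The level of Mpc1 is uncertain in both libraries, since the counting of shared reads is not known. Of 13 measured pyruvate and lactate genes, 1 was at least 2-fold lower and 0 higher, beside 5.36% and 6.46% of protein-coding genes. That gene was Pcx, which turns matrix pyruvate into oxaloacetate, at 18.4 and 7.59 CPM, 2.42-fold lower (1.96 to 3.02). Ldha, which turns cytosolic pyruvate into lactate, was 1.05-fold lower (1.04 to 1.07) at 2789 and 2650 CPM.

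The aspartate and glutamate carriers were lower as a group. Slc25a12 (aralar) and Slc25a13 (citrin), which export matrix aspartate in exchange for glutamate and feed the malate-aspartate shuttle, had 1099 and 519 counts (68.3 and 32.3 CPM), and 1346 and 792 counts (83.7 and 49.3 CPM). They were 2.12-fold (1.90 to 2.35) and 1.70-fold (1.55 to 1.86) lower, with log2 ratios of -1.06 and -0.75. Slc25a12 lies on chromosome 2 (71271063 to 71367749, minus strand) and Slc25a13 on chromosome 6 (6041218 to 6217173, minus strand). The glutamate carrier Slc25a22 was 1.68-fold lower (1.46 to 1.93), at 33.9 and 20.2 CPM. Its paralog Slc25a18 had 3 and 7 counts. A run of 163 bases of Slc25a12 is identical to the reverse complement of a run in Adpgk. That gene lies elsewhere in the genome, does not overlap Slc25a12, and had 1467 and 1078 counts.

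Promoter bases are printed for Slc25a12 and Slc25a13, since these genes differed in the same direction, and for Slc25a48, which had the lowest ratio. Each run is the 250 bases before the start of the gene on its own strand (RefSeq, GRCm38.p6), at chr2:71367756-71368005 (minus), chr6:6217174-6217423 (minus) and chr13:56438105-56438354 (plus). Of 9 motifs searched, capitals mark those of 7 factors (not the common GGGCGG and CCAAT), and of these 3 promoters only that of Slc25a13 has any: an AP-1 motif (TGANTCA) and an E-box (CACGTG) that overlap.
Slc25a12: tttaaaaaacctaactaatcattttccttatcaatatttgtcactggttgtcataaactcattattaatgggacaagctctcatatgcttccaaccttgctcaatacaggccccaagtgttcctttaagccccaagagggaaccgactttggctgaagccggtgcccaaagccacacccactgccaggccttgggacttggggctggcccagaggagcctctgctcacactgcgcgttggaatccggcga
Slc25a13: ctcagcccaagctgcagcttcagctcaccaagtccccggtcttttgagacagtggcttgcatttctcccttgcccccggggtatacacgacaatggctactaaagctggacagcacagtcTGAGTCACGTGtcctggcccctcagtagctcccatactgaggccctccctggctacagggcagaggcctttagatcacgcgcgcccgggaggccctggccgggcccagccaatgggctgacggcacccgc
Slc25a48: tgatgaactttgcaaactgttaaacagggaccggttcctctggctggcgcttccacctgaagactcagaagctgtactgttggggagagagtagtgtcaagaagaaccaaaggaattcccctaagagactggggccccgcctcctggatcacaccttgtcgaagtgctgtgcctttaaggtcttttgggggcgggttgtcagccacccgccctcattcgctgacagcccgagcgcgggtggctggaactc
Motifs were searched on both strands of 41 member promoters and of all 32851 promoters in the table. Each member had 1 promoter, that of the start nearest its gene start, while all promoters were taken without such a choice. The sets are thus unlike, and differences between their shares were not tested. The E-box stood in 6 member promoters (14.6%; Slc25a1, Slc25a13, Slc25a14, Slc25a31, Slc25a33 and Slc25a36), against 6.02% of all promoters. An ETS motif (CCGGAAG) stood in 7 (17.1%), against 6.91%. AP-1 stood in 2 (4.88%), against 6.75%, the NRF1 motif in 2 (4.88%), against 3.74%, and CRE (TGACGTCA) in 1 (2.44%), against 1.55%. The ATF4 element searched (TGATGNAA) and the NF-kB motif were in 0, against 3.45% and 0.356%. Member promoters were richer in G and C, with a median of 59.6% against 52.4%, and 27 of them (65.9%) held GGGCGG and 18 (43.9%) held CCAAT, against 32.7% and 33.9%. Of the 5 measured carriers with an E-box, 1 (Slc25a13) had a ratio whose interval excluded 1, beside 21 of all 41 measured carriers. Over protein-coding genes the interval excluded 1 on the higher side for 35.7% and on the lower side for 39.4%. Its width depends on the counts of a gene, and a relation to the motif was not tested.

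Shuttle and glutamine genes lay mostly to the same side as these carriers. Of 7 shuttle genes, 6 lay below a log2 ratio of 0, beside 51.5% of protein-coding genes, with a median of -0.40. None reached 2-fold (0 higher, 0 lower), beside 6.46% and 5.36% of protein-coding genes. Got1, the cytosolic transaminase that uses the exported aspartate, was at 83.9 and 49.8 CPM, 1.69-fold lower (1.54 to 1.84), and its matrix partner Got2 was 1.34-fold lower (1.28 to 1.40). Of 12 measured glutamine, proline and ornithine genes, 9 lay below 0, beside 51.5% of protein-coding genes, with a median of -0.61. On this list 1 was at least 2-fold higher and 2 lower, beside 6.46% and 5.36% of protein-coding genes. Gls2, a glutaminase, was 2.95-fold lower (2.36 to 3.72) at 19.3 and 6.53 CPM.

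Of the other amino acid carriers, Slc25a15 stood apart. It exchanges ornithine for citrulline, and it had 453 and 244 counts (28.2 and 15.2 CPM), 1.85-fold lower (1.58 to 2.18). Oat, which makes glutamate semialdehyde from matrix ornithine, was at 170 and 102 CPM, 1.67-fold lower (1.57 to 1.78). Arg2, the mitochondrial arginase that makes ornithine, was the gene of this list at least 2-fold higher, with 11 and 39 counts, 3.55-fold (1.78 to 7.68). Arg2 was under 1 CPM in the untreated library and passed the minimum through the PKCi library only. Otc, the next enzyme of the urea cycle, had 0 counts in both libraries. Slc25a44, which brings branched-chain amino acids into the matrix, had 829 and 790 counts. Slc25a38, a glycine carrier needed for heme synthesis, had 225 and 261, and the basic amino acid carrier Slc25a29 had 38 and 49, with intervals that held a ratio of 1 for all 3 genes. Slc25a2, an ornithine carrier like Slc25a15, had 0 in both.

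Slc25a48 had the lowest ratio of all carriers. It is known as a choline carrier, and it had 2123 counts (132 CPM) in untreated and 746 (46.4 CPM) in PKCi cells, 2.84-fold lower (2.61 to 3.09), a log2 ratio of -1.49. The gene lies on chromosome 13 (56438355 to 56474239, plus strand). It ranked 147 from the bottom among the protein-coding genes. Its relative Slc25a45 went the other way, from 235 counts (14.6 CPM) to 367 (22.8 CPM), 1.56-fold higher (1.32 to 1.85). In TPM, Slc25a48 was 7.10 times Slc25a45 in untreated cells and 1.60 times in PKCi cells. Slc25a20, which brings acylcarnitines in for fatty acid oxidation, had 324 and 314 counts, and the liver carrier Slc25a47 had 47 and 50, with intervals that held a ratio of 1. A list of 10 choline genes, picked after values were seen, had 6 measured, with 2 above a log2 ratio of 0 and 4 below. Of protein-coding genes 51.5% lay below. On this list 1 was at least 2-fold lower and 0 higher, beside 5.36% and 6.46% of protein-coding genes. The transporter gene Slc44a2 was at 26.9 and 6.10 CPM, and Slc44a1 at 124 and 130 CPM. Chdh, which oxidises choline in the matrix, had 19 and 7 counts.

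Carnitine and branched-chain genes were mixed. Of 14 measured, 2 passed 2-fold on the higher side and 0 on the lower, beside 6.46% and 5.36% of protein-coding genes. On the list 5 lay above a log2 ratio of 0 and 9 below (51.5% of protein-coding genes lay below), and the median was -0.21. Cpt1a, which makes the acylcarnitines that Slc25a20 carries, was at 53.8 and 147 CPM, 2.73-fold higher (2.52 to 2.95), while Slc25a20 itself had a ratio near 1. Bckdha, a subunit of branched-chain ketoacid dehydrogenase, was 2.48-fold higher (1.85 to 3.36) with 65 and 161 counts, and its partner subunit Bckdhb was 1.69-fold lower (1.29 to 2.23).

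Among cofactor carriers Slc25a32 differed most. It carries folates, and flavin adenine dinucleotide in some accounts, and it had 754 counts (46.9 CPM) in untreated and 318 (19.8 CPM) in PKCi cells, 2.37-fold lower (2.07 to 2.71), a log2 ratio of -1.20. The gene lies on chromosome 15 (39091231 to 39112716, minus strand). Slc25a16, linked to coenzyme A, was 1.38-fold lower (1.16 to 1.63) at 20.6 and 14.9 CPM. The S-adenosylmethionine carrier Slc25a26 was 1.29-fold lower (1.02 to 1.63), but its exons overlap 144 bases of Lrig1 on the opposite strand, which had 6459 and 8775 counts. Slc25a51, the NAD carrier, was 1.17-fold higher (1.09 to 1.26), at 86.6 and 102 CPM. The peroxisomal carrier Slc25a17 had 1005 and 994 counts and the coenzyme A carrier Slc25a42 had 71 and 67, and both intervals held a ratio of 1.

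Genes that use these cofactors in mitochondria were divided evenly. Of 16 measured, 8 lay above a log2 ratio of 0 and 8 below, 0 reached 2-fold either way, and the median was -0.00. Of protein-coding genes 51.5% lay below 0, 6.46% were at least 2-fold higher and 5.36% lower. Shmt2 and Mthfd2, enzymes of the matrix folate pathway, were 1.40-fold (1.34 to 1.46) and 1.34-fold (1.28 to 1.41) lower. Flad1, which makes flavin adenine dinucleotide, was 1.96-fold higher (1.70 to 2.25) at 18.9 and 37.0 CPM. Nadk2, which phosphorylates matrix NAD, was 1.84-fold lower (1.63 to 2.08).

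Glutathione and pyrimidine carriers showed no difference beyond counting error. Slc25a39, which imports glutathione, had 3579 and 3444 counts (222 and 214 CPM), a ratio whose interval runs from 1.09-fold lower to 1.01-fold higher. Its paralog Slc25a40 had 350 and 320 counts. The pyrimidine nucleotide carriers Slc25a33 and Slc25a36 had 248 and 227, and 365 and 353 counts. These intervals do not show that the levels were equal between cultures, since the spread between cultures was not measured.

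The remaining carriers were low or close to equal. Slc25a46, an outer membrane protein that takes part in mitochondrial shape, had 993 and 1046 counts, with an interval that held a ratio of 1. Slc25a53 had 18 and 33 counts, 1.84-fold higher (1.00 to 3.46). Slc25a43 and Slc25a54 had 0 in both libraries. In all, 11 carriers did not reach 1 CPM, which is about 16.1 counts: 7 had 0 counts in both libraries and 4 (Slc25a18, Slc25a31, Ucp2 and Ucp3) had 1 to 10 counts over both. Some members with 0 counts sit beside measured ones in the genome. Slc25a43 (X, 36743659 to 36777202) ends 18448 bases before Slc25a5, and Slc25a54 ends 6461 bases before Slc25a24 on chromosome 3. Slc25a41 lies 2056 bases from Slc25a23 on chromosome 17, which is itself low at 49 and 31 counts.

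Per gene length, the order of the most abundant carriers changed. In TPM from the deposited lengths, the untreated library had Slc25a5 first (585), then Slc25a3 (414), Slc25a4 (308), Slc25a39 (262), Slc25a1 (252) and Slc25a11 (164). In the PKCi library Slc25a37 came first (397), up from rank 9 (121 TPM), followed by Slc25a5 (360), Slc25a3 (307), Slc25a39 (254), Slc25a1 (250) and Slc25a4 (207). With 1 library per group the spread of these levels is not known, so the order of close neighbours such as Slc25a39 and Slc25a1 cannot be settled. The order depends on the lengths: with the median length of each gene's protein-coding GENCODE transcripts, Slc25a3 was first in both libraries (960 and 721 TPM) and Slc25a37 was rank 7 in untreated and rank 2 in PKCi cells.

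**Figure D4:**
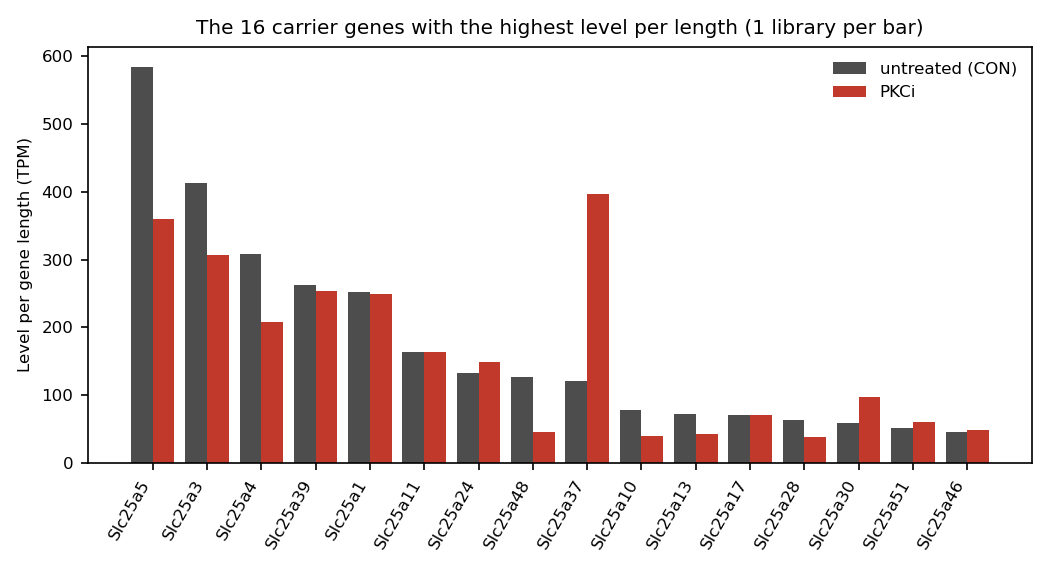
Level per gene length (TPM, deposited lengths) of the 16 carriers with the highest values, in the untreated library (dark bars) and the PKCi library (red bars), 1 library per bar and no error shown. Slc25a37 goes from 121 to 397 TPM while Slc25a5, Slc25a3 and Slc25a4 are lower in the PKCi library.

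The machinery that inserts carriers lay to the lower side. All 13 measured genes of the import pathway were below a log2 ratio of 0, beside 51.5% of protein-coding genes, with a median of -0.61, though Agk, Timm8b and Timm29 had intervals that held a ratio of 1. Of these, 3 were at least 2-fold lower and 0 higher, beside 5.36% and 6.46% of protein-coding genes. Tomm40, the pore of the outer membrane, was at 183 and 81.5 CPM, 2.25-fold lower (2.10 to 2.40). Timm9, a chaperone that guides carriers across the space between the membranes, was at 26.7 and 12.8 CPM, 2.08-fold lower (1.76 to 2.47). Timm10b, its partner at the TIM22 complex, had 43 and 10 counts, 4.29-fold lower (2.13 to 9.59). Timm10b was under 1 CPM in the PKCi library (0.622 CPM) and passed the minimum through the untreated library only. Tomm70a, the outer membrane receptor for carriers, was 1.61-fold lower (1.53 to 1.69) at 234 and 145 CPM. Timm22, the insertion channel itself, was 1.25-fold lower (1.12 to 1.39).

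A list of other mitochondrial membrane proteins, mostly transporters, had a median of -0.05. It includes Mtch1 and Mtch2, relatives of the Slc25 carriers whose symbols fall outside the rule. Of 21 measured, 2 passed 2-fold upward and 0 downward on the log2(CPM + 1) scale, beside 6.46% and 5.36% of protein-coding genes. On this list 7 lay above 0 and 14 below (51.5% of protein-coding genes lay below). By the plain ratio Slc8b1, the mitochondrial sodium/calcium exchanger, was 2.0-fold higher (1.77 to 2.27) and Sfxn2 was 2.02-fold lower (1.57 to 2.61), both just short of 2-fold on the log2(CPM + 1) scale. Sfxn3, a sideroflexin, was 2.58-fold higher (2.32 to 2.89) at 28.2 and 72.9 CPM, while Sfxn1, which brings serine into the matrix, was 1.60-fold lower (1.52 to 1.69) at 212 and 132 CPM. Mcub, the inhibitory subunit of the calcium uniporter, was 2.18-fold higher (2.0 to 2.39), and Mcu, its pore, was 1.31-fold lower (1.16 to 1.47). Vdac1, the main outer membrane channel for metabolites, was 1.34-fold lower (1.29 to 1.39).

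Regulators of mitochondrial gene expression were mixed. Of 11 measured, 1 passed 2-fold on the lower side and 0 on the higher, beside 5.36% and 6.46% of protein-coding genes. On this list 4 lay above 0 and 7 below (51.5% of protein-coding genes lay below), with a median of -0.17. The log2 ratios ran from -1.46 to 0.50, and the genes named here are all from the lower side. Ppargc1b, a coactivator of mitochondrial biogenesis, had 72 and 16 counts, 4.49-fold lower (2.59 to 8.28). It was just under 1 CPM in the PKCi library and passed the minimum through the untreated library only. Pprc1, a relative of Ppargc1b, was at 124 and 68.1 CPM, 1.82-fold lower (1.69 to 1.96). Tfam, which packages mitochondrial DNA and starts its transcription, was 1.46-fold lower (1.31 to 1.62).

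**Figure D5:**
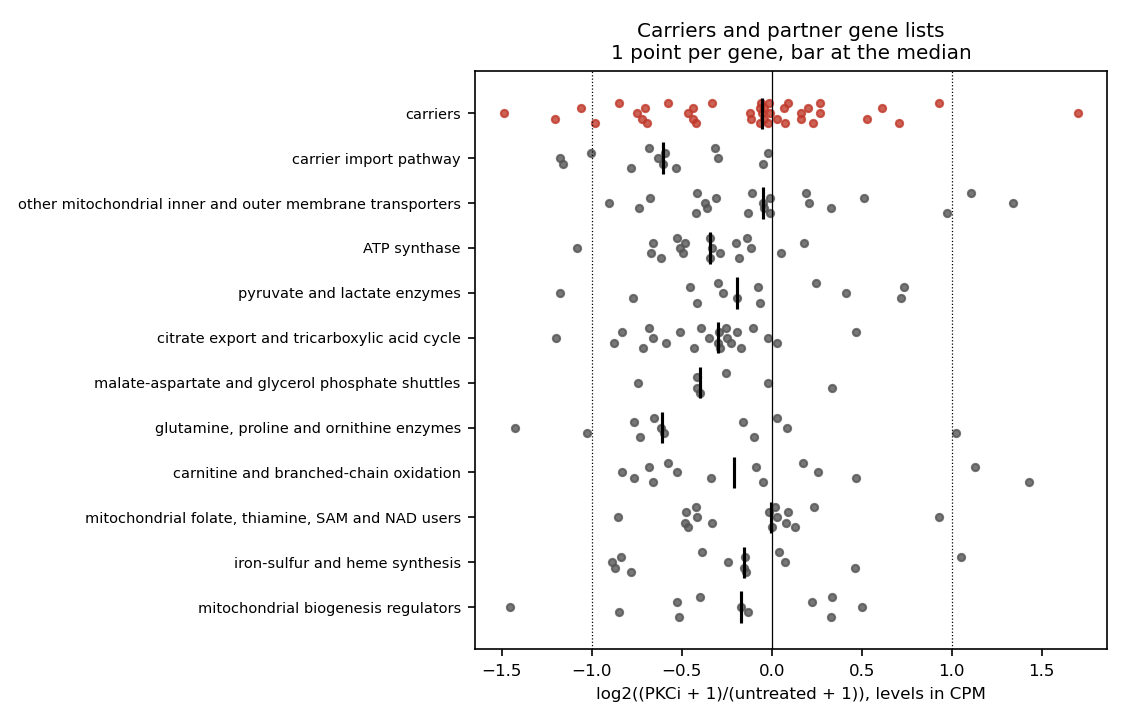
Log2((PKCi + 1)/(CON + 1)) in CPM for the 41 measured carriers (red) and the measured genes of 11 partner lists (grey), 1 point per gene, with a bar at each median and dotted lines at a 2-fold difference. The carriers have a median of -0.05, and the import pathway and the glutamine, proline and ornithine genes have the lowest medians, both at -0.61.

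The libraries held 16090186 (CON) and 16071153 (PKCi) gene counts, and 11700 and 11924 genes reached 1 CPM. Lung epithelial markers summed to 1582 and 1956 CPM, and the measured genes among them were Epcam, Krt8, Krt18 and Cdh1. Nkx2-1, Sftpc, Sftpb and Scgb1a1, which mark differentiated lung cells, had 0 counts in both. A list of general epithelial and carcinoma line genes summed to 110 and 109 CPM. Leukocyte markers summed to 10.6 and 6.72 CPM, with 8 of 11 at 0, and endothelial markers to 0.621 and 1.24 CPM. All 7 fibroblast markers had counts, and their sum was 101 CPM in untreated and 38.3 CPM in PKCi cells, in the same direction as the lower carriers. Their part in these results was not tested. Retina markers, listed because a protocol in the labels speaks of retinas, summed to 0.186 and 0.0622 CPM, with 6 of 8 at 0.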

How the data were processed

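Poly(A) RNA of 1 untreated and 1 PKCi-treated culture of CMT167R cells was sequenced with stranded libraries and 150-base paired-end reads, per the labels' descriptions; another protocol in the labels speaks of retinas and a kit that does not mark strand. HISAT2 2.0.5 and the build GRCm38 (mm10) are named per the submitters' processing notes. Which program counted the reads, with which strand setting, annotation and filters, is not given in the sources used here. A table that the authors deposited has a column of whole-number counts for each library, beside gene positions and lengths per the file headers. It is named for FPKM, yet it holds only whole numbers, which sum to 16090186 and 16071153, so the values were used as raw counts.

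Counts were scaled to CPM by the library total. A minimum of 1 CPM in either library kept 12273 genes, of which 10943 protein-coding, and a call was a 2-fold difference on log2(CPM + 1), whose pseudocount of 1 CPM shrinks low genes. Folds are plain CPM ratios with an exact conditional binomial (Clopper-Pearson) 95% interval, which covers counting error only, as PCR copies were not marked by molecular identifiers. A count of 0 allows up to 3 counts. TPM used the deposited lengths. Without replicates there was no test. Every carrier at or beyond 1.5-fold, the 6 most abundant per length and all related pairs are named. Partner genes are named from the 4 largest ratios of each list or by shared substrate. Others (Agk, Atp5e, Atpif1, Bckdhb, Glrx5, Mcu, Mtch1, Mtch2, Sfxn1, Tfrc, Timm22, Timm29, Timm8b, Tomm70a and Vdac1) were chosen after their values were seen, and lists share genes. Members and lists were chosen with earlier results of these data known. Positions of 49 of 52 members equal those in GENCODE M21. RefSeq promoters matched 41 members, and Slc25a2, Slc25a26, Slc25a27, Slc25a32, Slc25a35, Slc25a37, Slc25a41, Slc25a44, Slc25a46 and Slc25a51 were among those unmatched. Some genes of the lists are not reported here by name. How the counting treated reads shared by paralogs, pseudogenes or overlapping genes is not known, and 9 carriers share an identical run of at least 100 bases with a gene elsewhere. Alternatives were the pseudocount, the filter, TMM (edgeR 4.0.16) and DESeq2 1.42.0 scaling factors, TPM, transcript lengths and plain ratios. The scripts were tested on simulated data.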

Additional observations from a re-analysis of the deposited data

How the results depend on the processing

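The count of carriers at least 2-fold higher was 1, and became 2 with a pseudocount of 0.1 CPM and 2 with the plain CPM ratio, an alternative chosen after seeing the data; Slc25a27, at 36 and 83 counts, is the gene that crosses. The count of carriers at least 2-fold lower stayed at 3, except 2 with a pseudocount of 5 CPM, and the carriers' median log2 ratio ran from -0.07 (TMM) to -0.04. With no filter on low values, which adds genes with few counts, the median log2 ratio of the uncoupling proteins and their relatives was 0.27 in place of 0.71, and that of the carnitine and branched-chain genes -0.0661 in place of -0.21. The other 144 values of counts and medians stayed within 1.5 times or within the median counting interval of their genes, the 205 single-carrier values stayed within their counting intervals, and 0 carriers changed sign. TMM, DESeq2 and TPM scaling put the median of all genes at -0.03, -0.02 and -0.01, against -0.01 as reported. No paired analysis was possible because each group has 1 library and the labels give no replicate numbers. Depth limits the low carriers: 1 CPM is 16.1 counts, and the interval of Slc25a27 spans 1.54 to 3.51. Differences between cultures are not measured by any interval here.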
